A study of Homo sapiens with 12 samples.

Results

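Genes of the fibroblast extracellular matrix programme were followed through 6 lists of genomic regions. The 10 genes were COL1A1, COL1A2, COL3A1, COL5A1, COL5A2, FN1, SPARC, LOX, POSTN and VIM. A region belonged to a gene when it lay in the gene or within 20 kb of it, with gene positions in the hg19 build given to the nearest kb. This gave 298 of the 169273 regions deposited. The windows of the 10 genes joined to 987 kb because those of COL3A1 and COL5A2 overlap. The genes were chosen by their role in the matrix with the measured region calls of these lists in view, and which of those calls were used is not recorded. Their H3K18ac and BrdU values are therefore descriptions, and no test was made on them.

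The lists describe 3 human cell lines, with 1 library for each of 6 groups and 6 inputs that were not analysed here. H3K18ac, an acetyl mark on histone H3, was mapped by chromatin immunoprecipitation from 5000000 cells in untreated H1 embryonic stem cells and in untreated IMR90 lung fibroblasts. Newly made DNA, marked with the thymidine analogue BrdU (bromodeoxyuridine), was pulled down from 4 µg of DNA and sequenced, to relate DNA replication to the histone mark. The BrdU groups were IMR90 and Saos-2 osteosarcoma cells without siRNA, H1 cells with a non-targeting siRNA (H1 control) and H1 cells with siRNAs against EP300 and CREBBP (H1 knockdown). EP300 and CREBBP encode p300 and CBP, acetyltransferases that acetylate H3K18. Both H1 cultures for BrdU were collected 72 h after transfection and carried 10 µM HA 1077 in the medium, an additive that the labels give for no other group. Comparisons of H1 control with IMR90 or Saos-2 thus also differ in siRNA, additive and medium.

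Fibrillar collagens are triple helices that assemble outside the cell into the fibres that give connective tissue its strength. Type I collagen is built from the chains of COL1A1 and COL1A2, type III from COL3A1, and type V, a minor component that nucleates and limits the width of type I fibrils, from chains that include COL5A1 and COL5A2. Fibroblasts are the main source of these chains, and acetylation of histone H3 marks promoters and enhancers in use. FN1, SPARC, POSTN and LOX encode proteins that bind, organise or cross-link the collagen network, while VIM encodes the intermediate filament protein vimentin inside the cell.

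H3K18ac covered far more of these genes in IMR90 than in H1. The IMR90 list placed 180 regions in the 10 windows, which covered 148.3 kb or 15.0% of them. The H1 list placed 73 regions there, which covered 16.0 kb or 1.62%. The median gene had 13.5% of its window covered in IMR90, within a range of 2.37% to 61.0%, and 1.28% in H1, within 0.160% to 6.21%. Over all 27935 tiles of 100 kb that lay in 500 kb stretches with a region in any list, mean coverage was 1.41% in IMR90 and 0.563% in H1. Each of the 10 genes had a region in both lists, while 50.6% of the tiles had an IMR90 region and 63.8% an H1 region. The covered length in IMR90 was at least 2 times that in H1 at 9 of the 10 genes, the exception being COL5A1, while 31.0% of all tiles met the same criterion. That share is a rough scale. It includes tiles without an IMR90 region, which could not meet the criterion, and the gene windows measured between 50 and 243 kb. The reverse, an H1 length at least 2 times that of IMR90, was met by 33.4% of tiles and by 0 of the genes. Tiles with a region in 1 list alone met the criterion for that list whatever its length. All 10 genes had regions in both lists, so neither share is matched to them. Of the 17823 tiles with an H1 region and the 14125 with an IMR90 region, 10739 had both. The ratio of covered lengths ranged from 1.62 at COL5A1 to 62.7 at COL5A2, with a median of 10.5. Over the 10739 tiles with a region in both lists the median ratio was 1.86, and the whole IMR90 list was 2.51 times as long as the H1 list. COL1A1 and COL1A2 alone held 46.6% of the covered length in IMR90, and without them coverage was 9.30% in IMR90 and 1.36% in H1.

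**Figure D1:**
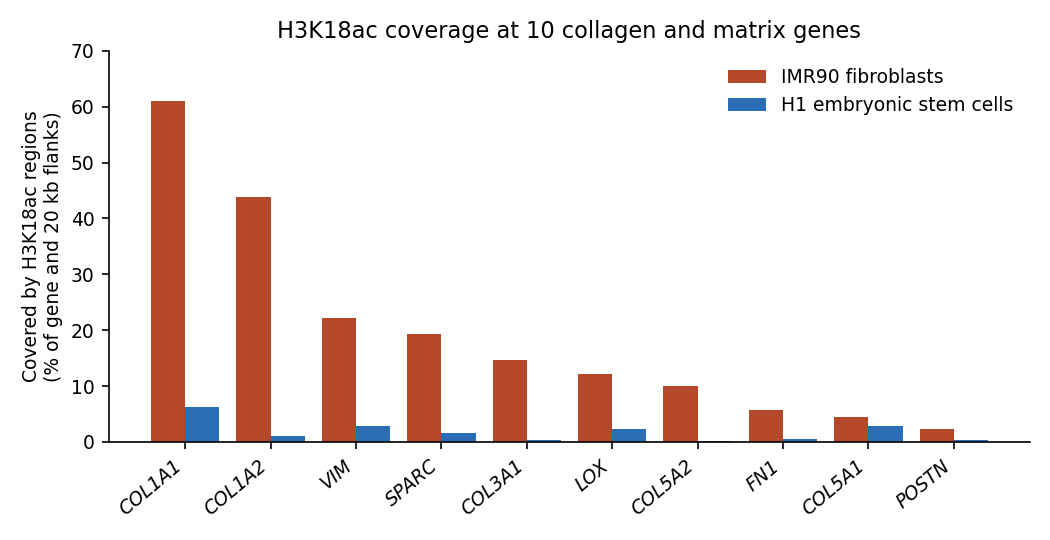
Share of each gene window, the gene with 20 kb on each side, that lay in H3K18ac regions, in percent, for IMR90 (red) and H1 (blue), with 1 library each and genes ordered by the IMR90 value. COL1A1 (61.0%) and COL1A2 (43.8%) stand above the rest in IMR90, and COL5A1 is the gene whose values in the cell lines lie closest (4.53% and 2.80%).

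The type I collagen genes carried the widest H3K18ac cover of the set in IMR90. At COL1A1, 35.4 kb of the 58 kb window lay in IMR90 regions and 3.6 kb in H1 regions, a ratio of 9.83. In IMR90 the gene itself was covered over 90.6% of its length, the 20 kb before its start over 80.0%, and the 20 kb behind its end over 15.5%. Most of the gene lay in a single region of 14700 bp at chr17:48262801-48277500, which ranked 2 by score among the 84471 regions of the list. Of the other IMR90 regions of the window the longest, 5200 bp at chr17:48281701-48286900, lay before the gene start. In H1 only 200 bp of the gene were covered, at chr17:48278701-48278900, about 0.1 kb inside the start. The strongest H1 region of the window, 1800 bp at chr17:48286901-48288700, lay 7.9 to 9.7 kb before the start, where IMR90 regions were also found. Of all 48081 tiles of the same 58 kb length, 6 had as much IMR90 cover as COL1A1, and 359 as much H1 cover.

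COL1A2 had 33.7 kb of its 77 kb window covered in IMR90 and 0.8 kb in H1, a ratio of 42.1. IMR90 regions covered 71.4% of the gene and 35.0% of the 20 kb before it, but 1.5% of the 20 kb behind it. The region of highest score, 6900 bp at chr7:94036901-94043800, lay 12.9 to 19.8 kb inside the gene, and that of the next highest score, 3200 bp at chr7:94024201-94027400, began 0.2 kb after the start. H1 had 3 regions here. The largest of them, 600 bp at chr7:94022801-94023400, lay before the start, and all 3 fell inside IMR90 regions.

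COL3A1 was covered in IMR90 at its start and in a second group of regions further in, and was nearly bare in H1. The covered length was 11.5 kb in IMR90 and 0.3 kb in H1. Its 24 IMR90 regions included 2100 bp at chr2:189838301-189840400, which spans the start, and 3000 bp at chr2:189841801-189844800, the strongest of the window. A further 1400 bp at chr2:189867101-189868500 lay 28.1 to 29.5 kb into the gene. The single H1 region, 300 bp at chr2:189885201-189885500, lay between COL3A1 and COL5A2 and counts for both genes. None of the 24 IMR90 regions overlapped an H1 region, a count of 0 that allows a share of up to 12.5% if regions are taken as independent. Here and below, the limit for a count of 0 is 3 divided by the number of regions or loci. It is not the Wilson interval used for some other shares. In the whole IMR90 list 14.5% of regions overlapped an H1 region. With a single H1 region in the window few overlaps were possible, so the count of 0 cannot show less sharing than in the list.

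**Figure D2:**
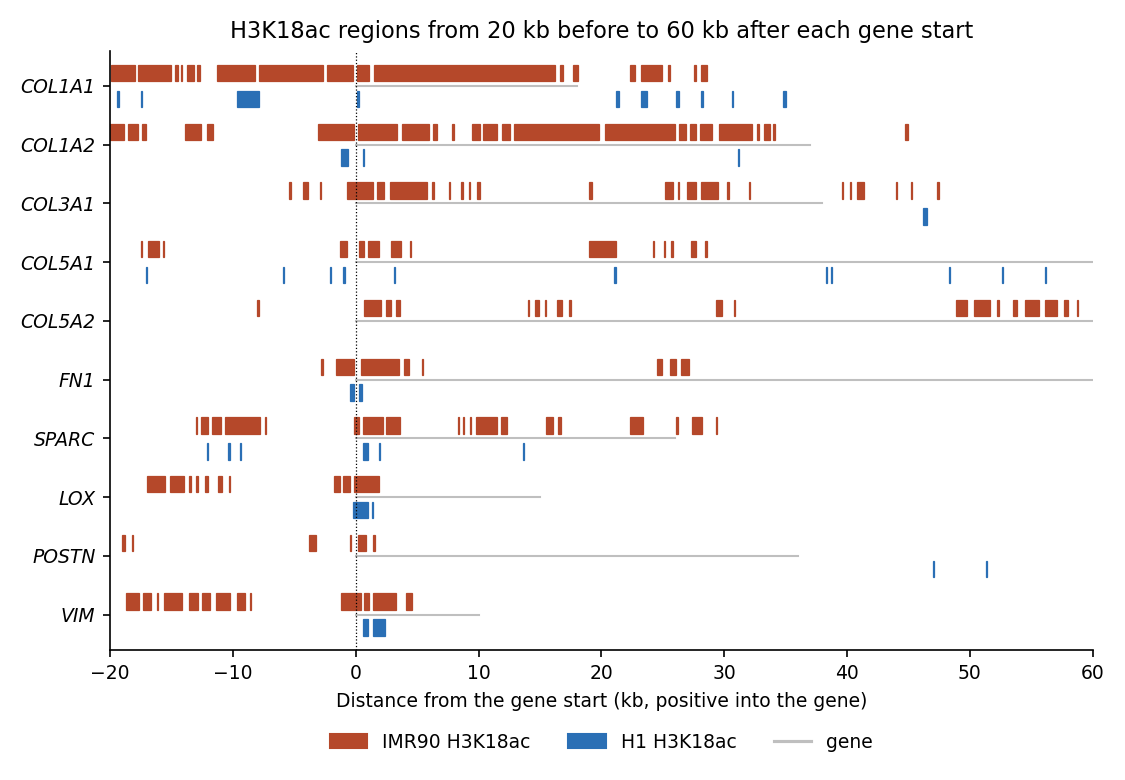
H3K18ac regions of IMR90 (red) and H1 (blue) from 20 kb before to 60 kb after the start of each of the 10 genes, with distance in kb along the x axis, each gene as a grey line, and the smallest regions widened by their outline. IMR90 regions cover 90.6% of COL1A1 and, in 16 separate regions, 71.4% of COL1A2, gather at the start and in distant groups at the others, and are few at POSTN.

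The type V collagen genes differed from each other. COL5A2 had 18.8 kb covered in IMR90 by 41 regions, the largest number of the 10 genes, against the same 0.3 kb in H1 that COL3A1 shares, so that its ratio of 62.7 rests on 1 H1 region. The IMR90 regions were of moderate size, and the longest measured 1800 bp. The highest score was shared by 1400 bp at chr2:190042901-190044300, 0.7 to 2.1 kb inside the start, and 1300 bp at chr2:189993401-189994700, about 50 kb further in. None of the 41 IMR90 regions overlapped an H1 region, which allows a share of up to 7.32% if regions are taken as independent. Here too the window held 1 H1 region, so this count cannot be weighed against the 14.5% of the list. COL5A1, in contrast, had 11 kb covered in IMR90 by 24 regions and 6.8 kb in H1 by 45 regions, so the H1 list held the larger number of regions and IMR90 the larger covered length. Of 11424 tiles of the same 243 kb length, 952 had as much IMR90 cover as COL5A1 and 356 as much H1 cover. By number of regions, 846 had as many in IMR90 and 36 as many in H1. The H1 regions were small, with a median of 100 bp and a longest region of 400 bp, and were spread along the whole gene. The strongest IMR90 region, 2200 bp at chr9:137553001-137555200, lay 19.0 to 21.2 kb into COL5A1.

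FN1 encodes fibronectin, which links cells to collagen, SPARC a collagen-binding glycoprotein of the matrix, and POSTN periostin, a matricellular protein of collagen-rich tissue. FN1 had 6.7 kb covered in IMR90 and 0.6 kb in H1, and SPARC 12.8 kb and 1.0 kb. At FN1, IMR90 regions of 3100 bp (chr2:216297501-216300600) and 1500 bp (chr2:216301101-216302600) lay on the 2 sides of the start, and both H1 regions overlapped them. At SPARC the strongest IMR90 region, 1600 bp at chr5:151064801-151066400, lay just inside the start, and a further 2800 bp at chr5:151074801-151077600 lay 7.8 to 10.6 kb before it. H1 had small regions at both places, of 100 to 400 bp. POSTN carried the least IMR90 cover of the set, with 1.8 kb in 6 regions. Its strongest region, 600 bp at chr13:38172201-38172800, ranked 32030 in the list. In H1 it had 0.2 kb in 2 single 100 bp steps, both behind the gene. Of tiles of POSTN's window length, 17.5% had as much IMR90 cover.

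LOX encodes lysyl oxidase, the enzyme that cross-links collagen and elastin, and it had 6.7 kb covered in IMR90 and 1.3 kb in H1. Regions of both cell lines met at its start. An IMR90 region of 2000 bp at chr5:121412101-121414100 and an H1 region of 1200 bp at chr5:121413001-121414200 overlapped over the start, and the H1 region ranked 1962 of 65946. Farther upstream IMR90 had 7 regions between -17.0 and -10.2 kb from the start of LOX, and H1 had none. VIM had 11.1 kb covered in IMR90 and 1.4 kb in H1. An IMR90 region of 1600 bp at chr10:17268801-17270400 spanned its start and overlapped no H1 region. Both H1 regions lay inside the gene, 0.6 kb and 1.4 kb after the start, and overlapped IMR90 regions. The longer of them, 1000 bp at chr10:17271401-17272400, fell in the strongest IMR90 region, 1900 bp at chr10:17271401-17273300. Upstream, a group of 9 IMR90 regions between -18.7 and -8.5 kb from the start of VIM had no H1 counterpart.

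The promoters of FN1, SPARC, LOX and VIM are shown because at least 400 bp within 1 kb of the start were covered in both cell lines, and that of POSTN because its start was marked weakly and in IMR90 alone. Each sequence is the 250 bases before the start in RefSeq, 5′ to 3′, and capitals mark matches on either strand to any of the following motifs. These were TATAAA, found in 10.7% of the 35116 promoter records of the table, then CCAAT, found in 32.0%, then GGGCGG, found in 42.6%, and TGACGTCA, found in 1.65%. COL5A1, FN1, SPARC, LOX, POSTN and VIM matched the table, and COL1A1, COL1A2, COL3A1 and COL5A2 did not.
FN1 promoter, GRCh38.p14 chr2:215436069-215436318, minus strand: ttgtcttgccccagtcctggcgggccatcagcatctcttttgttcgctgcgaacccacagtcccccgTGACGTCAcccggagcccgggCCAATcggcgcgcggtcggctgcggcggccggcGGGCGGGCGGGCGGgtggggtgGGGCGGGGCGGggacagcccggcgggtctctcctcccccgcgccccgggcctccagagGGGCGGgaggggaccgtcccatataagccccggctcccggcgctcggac
SPARC promoter, GRCh38.p14 chr5:151686916-151687165, minus strand: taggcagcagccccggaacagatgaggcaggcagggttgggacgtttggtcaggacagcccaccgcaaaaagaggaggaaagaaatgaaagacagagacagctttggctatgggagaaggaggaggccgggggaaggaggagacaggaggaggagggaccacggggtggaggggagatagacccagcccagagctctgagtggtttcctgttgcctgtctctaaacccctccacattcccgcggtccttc
LOX promoter, GRCh38.p14 chr5:122078260-122078509, minus strand: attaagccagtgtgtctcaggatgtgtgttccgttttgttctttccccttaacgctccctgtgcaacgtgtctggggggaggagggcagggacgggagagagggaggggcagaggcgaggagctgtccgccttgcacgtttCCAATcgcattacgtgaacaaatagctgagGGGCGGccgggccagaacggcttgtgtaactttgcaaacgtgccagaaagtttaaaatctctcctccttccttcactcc
VIM promoter, GRCh38.p14 chr10:17227991-17228240, plus strand: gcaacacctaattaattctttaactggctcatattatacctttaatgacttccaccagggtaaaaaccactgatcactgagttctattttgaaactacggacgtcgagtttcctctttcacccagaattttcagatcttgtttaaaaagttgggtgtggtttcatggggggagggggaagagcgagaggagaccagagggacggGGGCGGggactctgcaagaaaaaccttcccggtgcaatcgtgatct
POSTN promoter, GRCh38.p14 chr13:37598769-37599018, minus strand: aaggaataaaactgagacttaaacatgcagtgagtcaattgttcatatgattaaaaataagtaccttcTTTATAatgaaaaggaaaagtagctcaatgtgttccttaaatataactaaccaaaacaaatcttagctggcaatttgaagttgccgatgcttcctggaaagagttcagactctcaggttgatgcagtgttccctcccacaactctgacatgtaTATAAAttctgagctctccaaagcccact
The FN1 sequence was 76.4% G or C and held 32 CG pairs, 6 matches to GGGCGG, some of them overlapping, 1 to CCAAT and 1 to TGACGTCA. The LOX sequence was 55.2% G or C with 13 CG pairs, and held 1 CCAAT and 1 GGGCGG. The SPARC sequence, at 59.2%, held none of the motifs and 7 CG pairs. The VIM sequence, at 46.0%, held 8 CG pairs and 1 GGGCGG. The POSTN sequence, at 36.4%, held 1 CG pair and 2 matches to TATAAA. That of COL5A1, where 700 bp in IMR90 and 100 bp in H1 were covered within 1 kb of the start, is not shown. It was 74.0% G or C with 29 CG pairs and 2 matches to GGGCGG. Over all promoter records the median was 58.0% and 11 CG pairs. A match describes the letters only, and these sequences were not placed on hg19.

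Across the set, H3K18ac peaked just inside the gene start in both cell lines. An IMR90 region lay within 1 kb of the start at 10 of 10 genes and an H1 region at 7 of 10, the exceptions in H1 being COL3A1, COL5A2 and POSTN. Of all 2 kb tiles of the genome, not chosen at gene starts, 4.99% held an IMR90 and 4.35% an H1 region. In the kb from 1 to 2 kb after the start, mean coverage over the 10 genes was 80.0% in IMR90 and 8.0% in H1. In the first kb after the start H1 was at its highest, 23.0%. The region of highest score lay within 5 kb of the start at 8 genes in IMR90, COL1A2 and COL5A1 being the exceptions, and at 5 genes in H1. IMR90 cover was higher in the 20 kb before the start than in the 20 kb behind the end at 9 genes, with medians of 15.3% and 0.75%. COL5A2 was the exception, and the flank behind its end is shared with COL3A1. In GRCh38 RefSeq, other coding genes lie within 20 kb of COL1A1 (SGCA), COL5A1 (FCN2), FN1 (ATIC) and LOX (SRFBP1). COL3A1 and COL5A2 also neighbour each other. Flanking regions therefore need not belong to the gene they were counted for. WDR75 lies within 20 kb of COL5A2 as RefSeq lists it, at 409 kb, and was not placed against the 148 kb counted here.

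**Figure D3:**
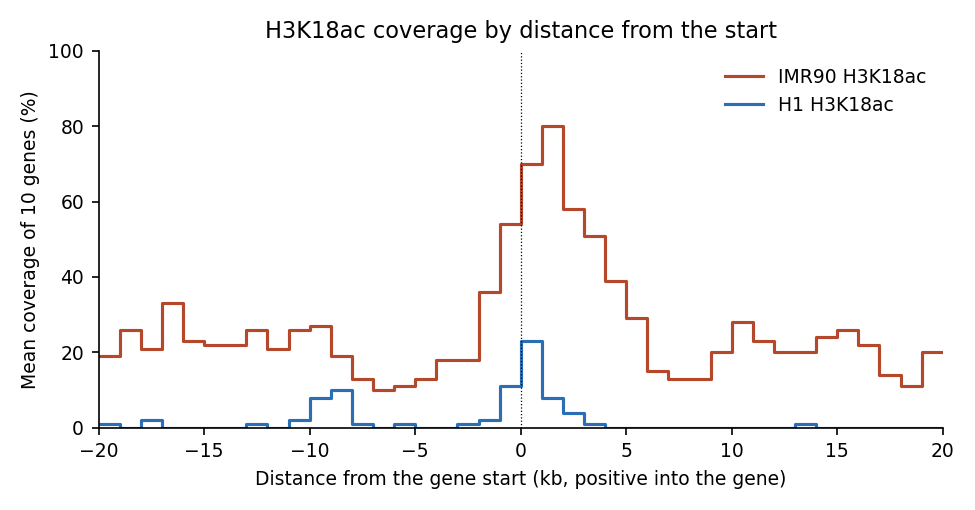
Mean share of each 1 kb step covered by H3K18ac regions over the 10 genes, in percent, against distance from the gene start in kb, for IMR90 (red) and H1 (blue). Positive distances run into the gene and, at VIM, LOX and COL1A1, past its end. Both lines rise at the start, to 80.0% in IMR90 and 23.0% in H1, and the IMR90 mean stays at 10.0% or more at every step from 20 kb before to 20 kb after it. Away from the start few genes carry this mean. The IMR90 median is 0 at most of these steps, and from -7 to -6 kb only 1 of the 10 genes has a region.

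Most H1 regions outside COL5A1 lay where IMR90 also had one. An IMR90 region overlapped 26 of the 73 (35.6%, 95% Wilson interval 25.6 to 47.1), against 19.0% of the whole H1 list. The intervals in this paragraph count regions as independent, which regions of one gene are not, so they are too narrow. COL5A1 held 45 of the 73 and 6 of these overlapped, while at the other 9 genes 20 of 28 did (71.4%, 52.9 to 84.7). All 12 H1 regions within 2 kb of a gene start overlapped an IMR90 region. In length, 52.5% of the H1 cover lay in IMR90 regions, against 23.0% over the whole list. The whole-list shares are not matched for IMR90 cover, which was 15.0% in these windows and on average 1.41% in the tiles. At COL1A1 and COL1A2, the genes with most IMR90 cover, 6 of 10 and 3 of 3 H1 regions overlapped. Whether the overlap exceeds what this cover alone would give was not tested. Seen from IMR90, 23 of the 180 regions (12.8%, 8.67 to 18.4) overlapped an H1 region, close to the 14.5% of the whole list. These 23 had a median length of 1700 bp and the remaining 157 a median of 300 bp. Among the IMR90 regions, 60 of 180 (33.3%) were in the upper 20% by score and 43 (23.9%) measured 1000 bp or more, against 11.9% of the list. Among the H1 regions, 7 of 73 (9.59%) were in the upper 20% and 3 (4.11%) measured 1000 bp or more, against 2.59% of the list. COL5A1 held 1 of these 7 among its 45 H1 regions, and the other 9 genes 6 of 28 (21.4%).

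BrdU regions, which mark places of DNA synthesis in the labelled cells, were absent from most of the genes. The windows held 13 regions of H1 control, 0 of H1 knockdown, 18 of IMR90 and 14 of Saos-2. H1 control and IMR90 had a region at 2 of the 10 genes, COL1A1 and COL5A1, and Saos-2 at 3, these and COL5A2. Of all 100 kb tiles, 13.6% held an H1 control region, 13.2% an IMR90 region, 14.3% a Saos-2 region and 5.76% an H1 knockdown region. The windows measured between 50 and 243 kb, so these shares are only a rough scale, and the counts of genes lay near them. No BrdU region was found at COL1A2, COL3A1, FN1, SPARC, LOX, POSTN or VIM in any list. Of the 45 BrdU regions in the 10 windows, 39 (86.7%) lay at COL5A1.

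At COL1A1 a BrdU locus 16.5 kb behind the end of the gene was found in all 3 cell lines, with 500 bp in H1 control (chr17:48244001-48244500), 300 bp in IMR90 (chr17:48244001-48244300) and 300 bp in Saos-2 (chr17:48244101-48244400). An H1 H3K18ac region of 200 bp lay inside it. H1 control had a further 100 bp at chr17:48259301-48259400. IMR90 had 200 bp inside the gene at chr17:48267601-48267800, and this region fell wholly within the 14700 bp IMR90 H3K18ac block. The single region at COL5A2, 100 bp of Saos-2 at chr2:190047801-190047900, lay 2.8 kb before the start and ranked 5484 of 6272 by score.

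COL5A1 was densely set with BrdU regions in each of the 3 cell lines. It held 11 regions of H1 control, 16 of IMR90 and 12 of Saos-2, which covered 3.2, 6.5 and 8.1 kb. A tile of the same 243 kb length held on average 0.445, 0.502 and 0.548 regions, and 72.9%, 75.9% and 73.0% of the 11424 tiles held none. The only tile with as many H1 control regions was one that overlaps COL5A1 itself. For IMR90 there was 1 such tile elsewhere in the genome, and for Saos-2 there were 18. The strongest IMR90 region at COL5A1, 1800 bp at chr9:137651201-137653000, ranked 10 of 5743, and the Saos-2 region at the same place, 2000 bp at chr9:137651201-137653200, ranked 49 of 6272. H1 control had 3 regions there, of 600, 100 and 100 bp, the longest at chr9:137651201-137651800. A locus 11.6 to 13.0 kb after the start held 900 bp in H1 control (chr9:137546001-137546900, rank 125 of 5086), 1000 bp in IMR90 (chr9:137545901-137546900, rank 58) and 1400 bp in Saos-2 (chr9:137545601-137547000, rank 170).

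Some places of BrdU regions within COL5A1 were shared between cell lines. All 11 H1 control regions overlapped a Saos-2 region (95% Wilson interval 74.1% to 100%) and 7 an IMR90 region (63.6%, 35.4 to 84.8), against 34.0% and 20.5% of the whole H1 control list. Of the 16 IMR90 regions, 6 (37.5%, 18.5 to 61.4) overlapped H1 control and 7 (43.8%, 23.1 to 66.8) Saos-2, against 18.1% and 26.8% of that list. Of the 12 Saos-2 regions, 9 (95% Wilson interval 46.8% to 91.1%) overlapped H1 control and 7 (58.3%, 32.0 to 80.7) IMR90, against 26.0% and 23.5%. Merging the lists gave 21 loci in the window, of which 6 (28.6%, 13.8 to 49.96) were found in all 3 cell lines, against 6.83% of all 13567 loci of the series. These 6 loci were spread through the gene, and began 11.6, 42.8, 72.2, 102.2, 117.2 and 186.3 kb after its start. Of the other 15, 4 were found in 2 lines and 11 in 1. Neighbouring regions of one gene are not independent, and the intervals cover only the counting error of regions. The whole-list shares are also not matched for BrdU cover. In the COL5A1 window this cover was 1.32% in H1 control, 2.67% in IMR90 and 3.33% in Saos-2. Tiles of that length had means of 0.0387%, 0.0438% and 0.0741%. Whether the sharing exceeds what this cover alone would give was not tested.

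**Figure D4:**
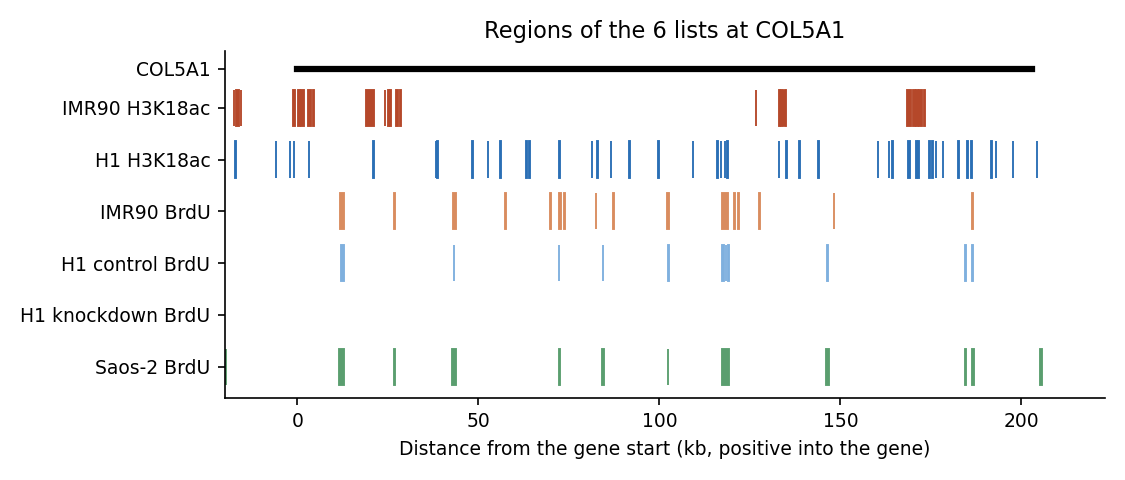
Regions of the 6 lists along COL5A1 and its 20 kb flanks, by distance from the gene start in kb, with the gene as a black bar, 1 row for each library, and the smallest regions widened by their outline. BrdU regions of H1 control, IMR90 and Saos-2 line up at several places, and the IMR90 H3K18ac regions lie elsewhere. The H1 knockdown row is empty, as were 87.0% of tiles of this length in that list.

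No BrdU region at the 10 genes was called in H1 after knockdown of EP300 and CREBBP. The whole knockdown list was also shorter, with 1755 regions against 5086 in H1 control. Of tiles of COL5A1's window length, 87.0% held no knockdown region. None of the 13 H1 control regions overlapped a knockdown region. This follows from the absence of knockdown regions in the windows and adds nothing to it. Of the whole control list, 3.07% overlapped a knockdown region. A count of 0 among 13 regions allows a share of up to 23.1%, so it could not be told apart from that of the list. The knockdown region nearest to COL5A1, 300 bp at chr9:137838401-137838700, lay 101 kb away, and those nearest to SPARC and COL1A1 lay 45.4 and 55.1 kb away.

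Overlaps of H3K18ac and BrdU at COL5A1 were few, as in the whole lists. In H1, none of the 11 control BrdU regions overlapped an H1 H3K18ac region, which allows a share of up to 27.3%, and 8.75% of the whole list did. In IMR90, none of the 16 BrdU regions overlapped an IMR90 H3K18ac region, which allows up to 18.8%, against 2.44% of the list. H1 H3K18ac regions overlapped 2 of the 16 IMR90 BrdU regions (12.5%, list 9.49%) and 2 of the 12 Saos-2 ones (16.7%, list 12.6%). No IMR90 H3K18ac region touched any of the 21 loci, which allows up to 14.3%, against 2.59% of all loci of the series. H1 H3K18ac regions touched 2 of the 21 (9.52%), against 8.33% of all loci. These were the loci 72.2 and 117.2 kb after the start of COL5A1, both found in all 3 lines. At the latter, H1 H3K18ac regions at chr9:137652001-137652200 and chr9:137652801-137652900 lay inside the IMR90 and Saos-2 BrdU regions and between the separate BrdU regions of H1 control. At these depths and numbers, the shares could not be told apart from those of the whole lists.

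The values just inside and outside the 20 kb limit were as follows at 4 of the genes. At COL1A1 the outermost IMR90 H3K18ac region inside the limit measured 1900 bp and lay 18 kb before the start, and the first one outside it measured 300 bp at 20.2 kb. At COL1A2 the limit ran through a region of 2000 bp whose near end lay 18.9 kb before the start, and the next one, of 1900 bp, lay 25.0 kb away. At LOX the regions inside and outside measured 1500 bp at 15.5 kb and 500 bp at 20.1 kb, and at VIM 1100 bp at 17.6 kb and 600 bp at 20.8 kb. With 1 library in each group there is no replicate error. The depth is unknown, so places without a call can still carry signal below the cut-off the authors used.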

How the data were processed

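The deposited files are 6 lists of regions, 1 for each pulled-down library, on a grid of 100 bp steps in hg19. Per the submitters' processing notes, reads were aligned with Bowtie 0.12.7. For the region caller, its threshold and the use of the inputs, the answer is not given in the sources used here. The deposited value per region is a score from the authors. Its meaning is not stated, so it served for ranks inside each list and nothing else. Gene positions came from the rule that defined the set, to 1 kb. Strands were taken from general knowledge and matched the RefSeq promoter table at the 6 genes it holds. The gene length in RefSeq (GRCh38.p14) was within 1 kb of the rule's, except for COL5A2, listed at 409 kb against 148 kb. No hg19 annotation was used here, so planned counts at other matrix genes and at cell type markers were not run. Coverage and overlaps (at least 1 bp) were computed with pandas 2.3.3, numpy 2.4.6 and scipy 1.17.1 under Python 3.11.15, tested on simulated lists, and plotted with matplotlib 3.10.9. Background tiles lay in joined 500 kb bins with a region in any list, and their grid is not aligned to the genes. All 10 genes are named, with their strongest, longest or start-side H3K18ac regions and the BrdU regions that the results turn on. Some regions were picked for the text after their values were seen. The genes and lists were chosen with earlier results of these data known. With 1 library per group no test was possible.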

Additional observations from a re-analysis of the deposited data

How the results depend on the processing

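Coverage, counts of genes and shares were recomputed with no flanks, with 10 or 50 kb flanks, with only the higher-scoring 50% of regions, with regions of 200 bp or more, with lists of equal number, by region midpoint, with 50% overlap and after merging within 1 kb. Leaving out COL1A1 and COL1A2, or COL5A1, was chosen after seeing the data. Under all of these, 72 of 94 values stayed within the interval of the main value or, for counts, within 1.5 times of it. For coverage that interval treats 100 bp steps as independent, which they are not, so it is too narrow and serves only to sort the values here. The 94 leave out IMR90 coverage of single genes without flanks and in the upper 50%, where 12 values stayed and 8 moved. COL1A1, for example, went from 61.0% to 90.6% without flanks. With lists of equal number, the H1 H3K18ac, H1 control and H1 knockdown lists stayed whole. Values from these lists alone could not change in that setting. The count of genes with IMR90 cover at least 2 times that of H1, 9 as reported, ranged from 8 to 10. IMR90 coverage, 15.0%, moved to 16.0% without flanks, 11.8% with 50 kb flanks, 14.0% in the upper 50%, 20.8% after merging and 9.30% without COL1A1 and COL1A2. H1 coverage, 1.62%, moved to 1.28% with 50 kb flanks, 1.24% in the upper 50%, 1.21% in regions of 200 bp or more, 2.74% after merging and 1.36% without COL1A1 and COL1A2. The ratio of coverage in genes to that in flanks, 1.18 in IMR90 and 1.04 in H1, moved to 1.76 in IMR90 with 50 kb flanks, and in H1 to 0.701 and 1.60 with 10 and 50 kb flanks, 1.51 after merging and 2.61 without COL1A1 and COL1A2. BrdU regions were at 4 genes in H1 control and 1 in H1 knockdown with 50 kb flanks, and at 1 gene in H1 control and 1 in Saos-2 without flanks. The share of H1 H3K18ac regions overlapped by IMR90 rose from 35.6% to 71.4% without COL5A1, and that of IMR90 regions overlapped by H1 went from 12.8% to 2.22% at 50% overlap and 25.8% after merging. The cause of these changes was not tested, apart from the smaller or larger windows and lists themselves. No paired analysis was possible because each group has 1 library.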
